A study of Mus musculus with 16 samples.

Results

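The 10 genes described here are members of the pluripotency network of the mouse, namely Pou5f1, Nanog, Lin28a, Prdm14, Zfp42, Esrrb, Nr5a2, Tfcp2l1, Sall4 and Utf1. They were chosen by symbol, with earlier results of these data known, and all 10 were found in RefSeq's table for GRCm38.p6 (mm10 coordinates), which holds 21887 protein-coding genes. Each gene was described with the regions that lay within 30 kb of it in 3 deposited region lists. These windows held 10 of 26654 H3K4me3 regions, 227 of 98342 H3K27me3 regions and 0 of 10888 succinyllysine regions.

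The cells were immortalized mouse embryonic fibroblasts, studied by ChIP-seq, which sequences the DNA fragments that an antibody brings down with chromatin. The experimental line was R26M2rtTA/+;TetOcre;Sdhcfl/fl, and the control line was R26M2rtTA/+;TetOcre;Sdhcfl/wt. Both lines carried the doxycycline-controlled activator rtTA at Rosa26 and a Cre recombinase under a tetracycline operator, and both received doxycycline at 1 µg/mL, so the control cells were exposed to drug and Cre as well. Doxycycline triggers recombination of Sdhc, which encodes a membrane anchor of succinate dehydrogenase, and cells were taken at day 16. Loss of this enzyme is known to raise succinate, and succinyllysine is the form of lysine that carries a succinyl group. Each line gave 2 samples for every antibody (succinyllysine, H3K4me3 and H3K27me3) and 2 samples of input chromatin, 16 samples in all. The labels name 1 cell line per genotype and do not say whether the 2 samples came from separate cultures. The authors deposited 1 list per antibody for its 4 ChIP samples, with start and end positions and no height or value per sample. The fl/fl and fl/wt cells therefore could not be compared, no spread between samples could be given, and no test was run. Read depth is unknown.

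Pluripotency is held in mouse embryonic stem cells by a set of transcription factors that bind one another's genes and that are silent in most differentiated cells. H3K4me3 marks active or poised promoters, and H3K27me3 is laid down by Polycomb repressive complex 2, which keeps many developmental genes off. A promoter that lacks both marks can be silent by other means, and DNA methylation is known for several genes of this network in somatic cells. Fibroblasts are known to keep most of these genes off, and turning the network back on is the aim of reprogramming.

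The genes fell into 3 states. At the gene ends, defined as 1000 bp on either side of both outer ends, 6 of 10 genes carried H3K27me3 and no H3K4me3, namely Lin28a, Prdm14, Esrrb, Nr5a2, Sall4 and Utf1. H3K27me3 lay at the ends of 13.6% of all protein-coding genes by the same rule, and H3K27me3 with no H3K4me3 at 10.4%. Tfcp2l1 alone had H3K4me3 there, 1 of 10 genes beside 55.6% of all genes, and 52.4% of all genes had H3K4me3 and no H3K27me3. With windows of 2500 bp the H3K4me3 count was 2 of 10, beside 58.4% of all genes, through a region that lies over the start of Dhdds, next to Lin28a. Pou5f1, Nanog and Zfp42 had neither histone mark at their ends, 3 of 10 genes beside 34% of all genes. This count was close to the share of all genes. None of the 10 had both marks at its ends, which was also close to the 3.13% of all genes in that state. Since earlier results for a longer pluripotency list were known when the genes were chosen, these counts describe the genes and are no independent evidence.

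**Figure D1:**
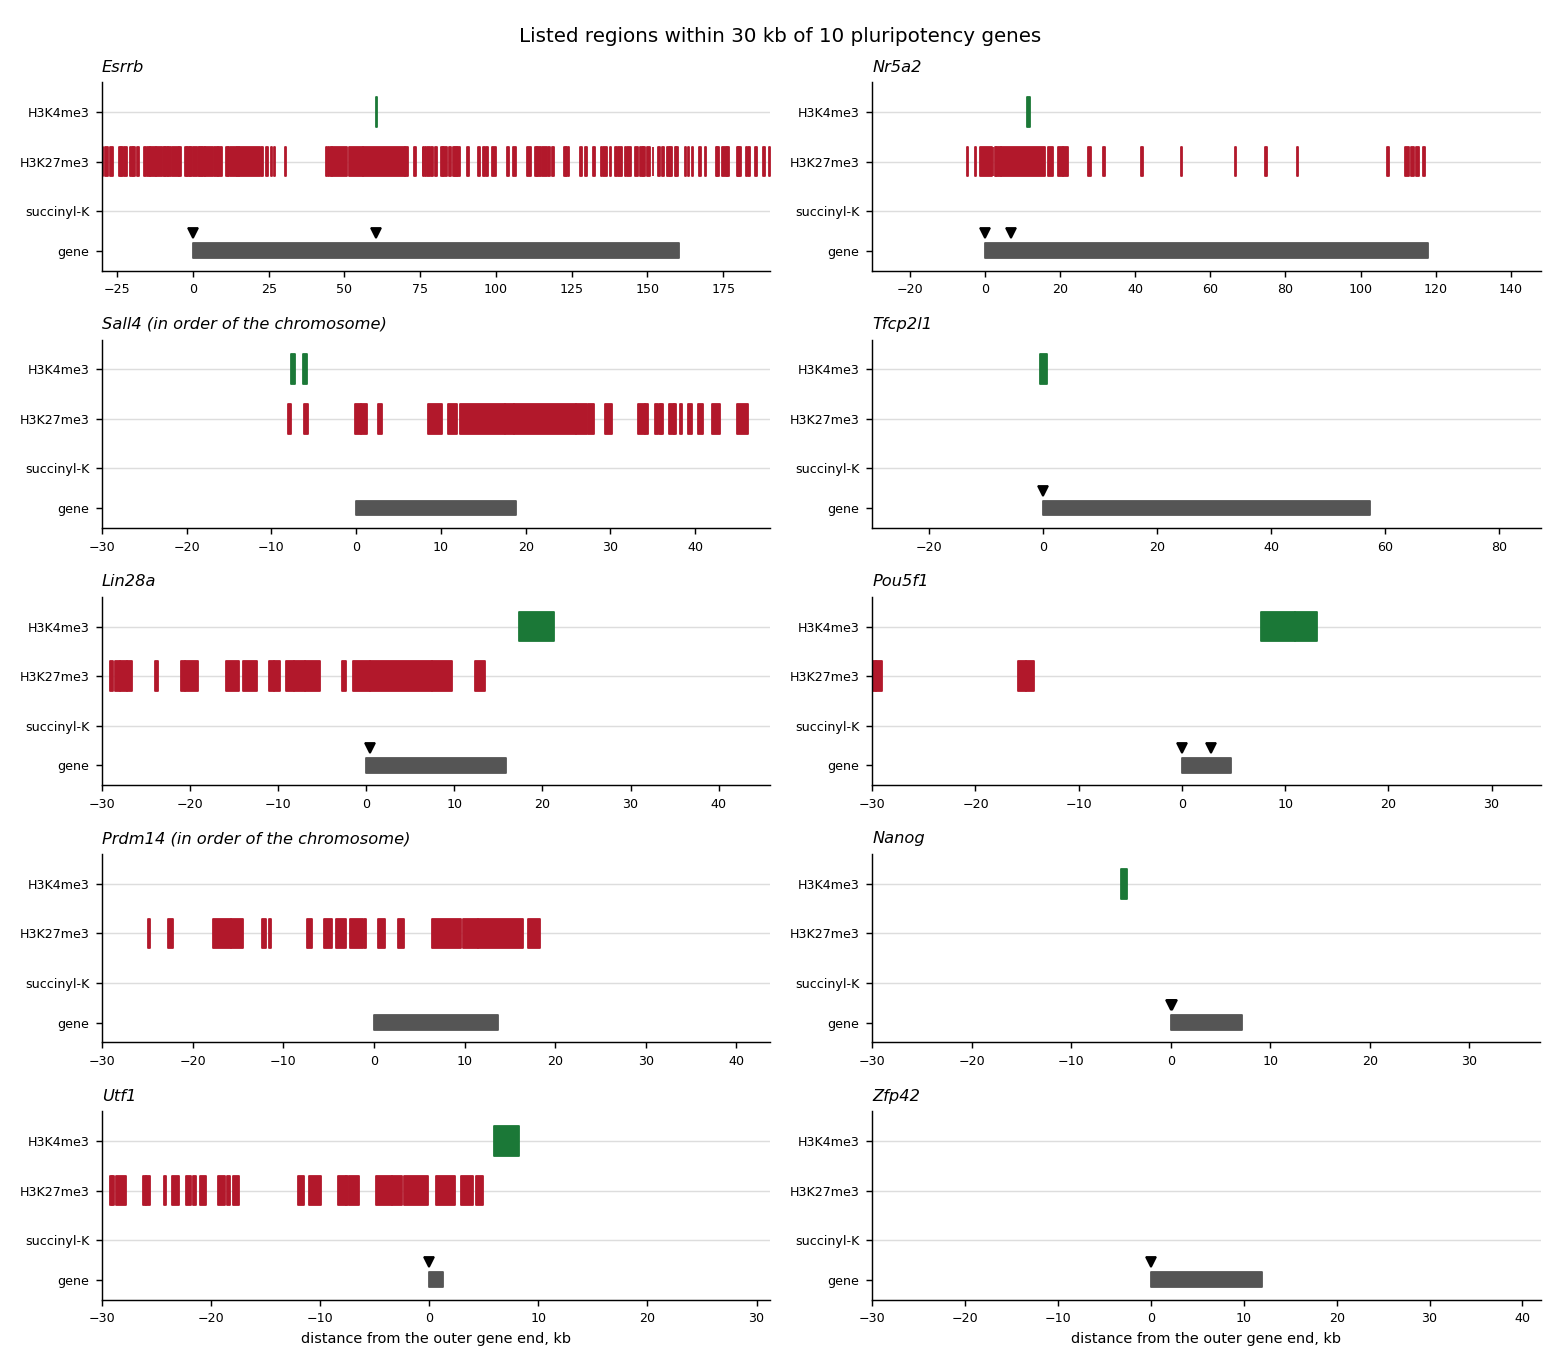
Each panel shows 1 gene with 30 kb on each side; the horizontal axis is the distance in kb from the outer gene end at which transcription starts, or from the lower-coordinate end for Sall4 and Prdm14. Coloured blocks are the deposited regions of each antibody, the grey bar is the gene and triangles are annotated starts. H3K27me3 lies at an end or at both ends of 6 genes. H3K4me3 covers the start of Tfcp2l1, and no succinyllysine block appears in any panel.

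Pou5f1 encodes Oct4, the POU-family factor at the centre of the network. The gene (chr17:35506032-35510777, 4746 bp) had no region of any list at its ends or inside. Its nearest H3K4me3 regions began 2924 bp and 6224 bp beyond the gene's 3′ end, measured 3300 and 2100 bp and abutted each other. They covered annotated starts of Tcf19 and Cchcr1, which are neighbouring genes. Upstream, 4 H3K27me3 regions reached into the 30 kb flank. A pair of 800 and 700 bp lay closest, 14332 bp from the gene, and a region of 4100 bp farther out lay within 1000 bp of H2-Q10, a class I histocompatibility gene. The stretch free of both histone marks around Pou5f1 measured 22 kb and held no other protein-coding gene.

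Nanog encodes the homeobox factor that stabilises self-renewal. Its gene (chr6:122707489-122714633, 7145 bp) was likewise bare at its ends and inside. A 600 bp H3K4me3 region (chr6:122702501-122703100) lay 4389 bp upstream of the first annotated start and covered no annotated start of any gene in the promoter table. No H3K27me3 region was listed within 30 kb, and the nearest lay 92.4 kb away, beside a median of 46.2 kb over all protein-coding genes. The stretch without either histone mark ran for 60.8 kb across the gene.

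Zfp42 encodes Rex1, a zinc finger protein long used as a marker of undifferentiated cells. It was the only one of the 10 genes with no region of any list within 30 kb, a state shared with 10% of all protein-coding genes. The gene (chr8:43295067-43307009) lay 1626 kb from the nearest H3K4me3 region and 1766 kb from the nearest H3K27me3 region. Of all genes, 1.88% lay as far or farther from H3K4me3, and 2.28% as far or farther from H3K27me3. The whole stretch without a histone mark region measured 3516 kb and held 2 succinyllysine regions and 7 other protein-coding genes, as bare of both histone marks as Zfp42 itself.

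The promoters of Nanog and Zfp42 are shown because they had neither mark and, among the 12 listed for these genes, were the ones that held octamer letters. Each line gives the 250 bases before the first annotated start from RefSeq (GRCm38.p6), read 5′ to 3′ on the gene's own strand. Capitals mark the letters ATGCAAA or ATGCAAAT, the octamer bound by POU factors, and CATTGT, bound by Sox factors, on either strand.
Nanog, chr6:122707239-122707488, plus strand: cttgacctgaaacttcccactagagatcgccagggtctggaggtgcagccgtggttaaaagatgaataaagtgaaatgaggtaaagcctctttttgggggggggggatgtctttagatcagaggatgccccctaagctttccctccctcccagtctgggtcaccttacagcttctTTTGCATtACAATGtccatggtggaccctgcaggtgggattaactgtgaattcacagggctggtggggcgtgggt
Zfp42, chr8:43307010-43307259, minus strand: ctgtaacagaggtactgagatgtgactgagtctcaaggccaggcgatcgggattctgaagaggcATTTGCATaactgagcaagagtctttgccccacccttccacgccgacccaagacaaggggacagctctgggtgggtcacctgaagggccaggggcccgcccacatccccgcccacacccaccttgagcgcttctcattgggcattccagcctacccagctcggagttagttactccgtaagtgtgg

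At Nanog the shortened octamer lay 75 bases and the Sox letters 67 bases before the start, 1 base apart and both on the opposite strand. A joined Oct4 and Sox2 site is well known at the Nanog promoter. At Zfp42 a full octamer lay 186 bases before the start. The full octamer occurred in 1.66% and the shortened one in 4.23% of the 21263 promoters of protein-coding genes in the table, each of 300 bases. Every full octamer also counts as a shortened one, and the shortened form was added after the Nanog sequence had been seen. The Sox letters occurred in 11% of promoters, and within the 10 genes also at Esrrb, Lin28a and Pou5f1. AAGGTCA, a site for Esrrb and Nr5a2, occurred in 4.08% of promoters and in none of the 12 promoters listed for the genes described here. Only exact matches were counted, so a site with any differing letter was missed, and absence of these letters does not show absence of binding. Prdm14 and Sall4 have no entry in the promoter table.

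Sall4 encodes a zinc finger factor that partners Oct4. The gene (chr2:168748332-168767201) carried H3K27me3 over 78.3% of its end windows, 53.8% of its inside and 27.9% of its flanks. Most of it formed a single stretch of abutting regions of 15000 bp (chr2:168760601-168775600) that ran over the upper end of the gene, and its widest region measured 7300 bp. Only 0.278% of such stretches in the whole list were as wide. On the upper side of the gene 53.1% of the flank was covered, against 2.76% of the lower flank. The lower flank instead held H3K4me3 regions of 500 and 400 bp at Atp9a, which encodes a P4-type ATPase. The 400 bp region covered an annotated start of Atp9a and shared 300 bp with a 500 bp H3K27me3 region.

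Esrrb, an orphan nuclear receptor that supports the naive state, had the most H3K27me3 of the 10 genes. Across the gene (chr12:86361117-86521628, 160512 bp) and its flanks, 116 regions covered 112384 bp, or 51.0% of the window, and 1.91% of all protein-coding genes had as high a share. Coverage was 59.3% at the ends, 52.2% inside and 47.1% in the flanks. Both annotated starts lay under H3K27me3, the first within a region of 1300 bp and the second within a region of 13900 bp, a width reached by 0.165% of the list. Counted in 10 kb steps from the first start, coverage was 85.8% and 87.2% in the opening steps and 4% between 30 and 40 kb. It then reached 91.0% in the step before the second start and 99.8% in the step that holds it.

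The second start of Esrrb was also the only annotated start of the 10 genes where the histone marks met. A 200 bp H3K4me3 region (chr12:86421501-86421700) covered this start at 86421644 and lay wholly inside the 13900 bp H3K27me3 region. No H3K4me3 region in the list was narrower, and the median width there was 1100 bp. The counts of Esrrb as marked by H3K4me3, at a start and inside the gene, rest on this region alone. Whether both marks lay on the same chromosomes, in the same cells or in the same line cannot be told apart from the lists.

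**Figure D2:**
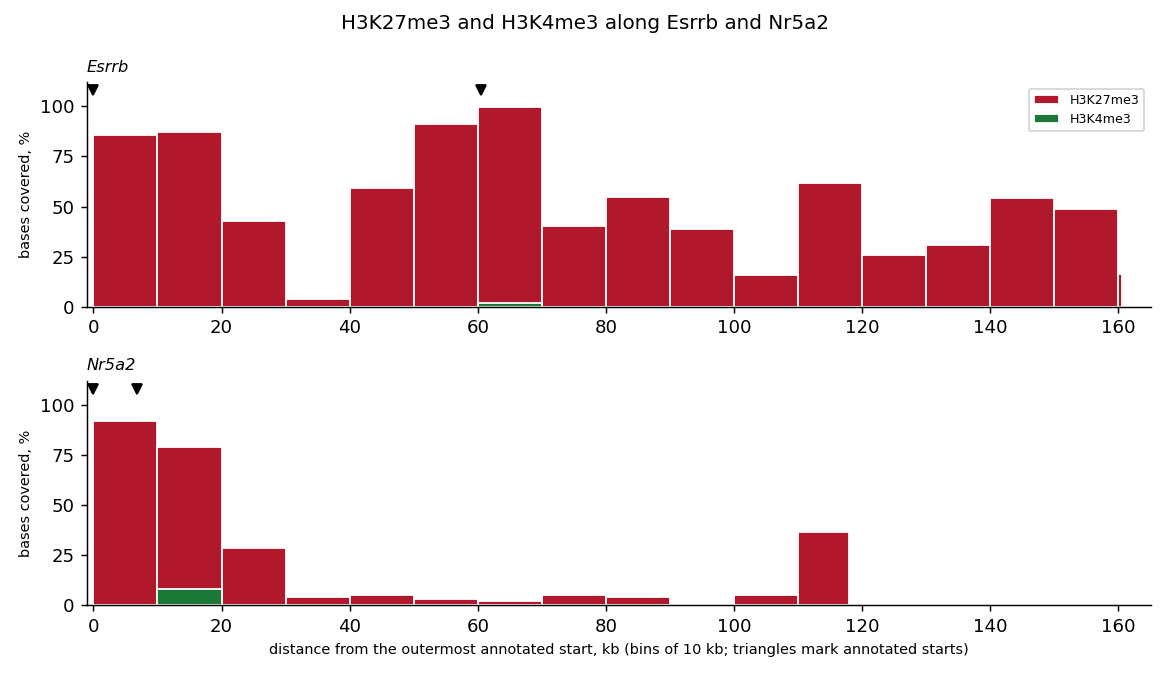
Bars give the percentage of bases covered by H3K27me3 and H3K4me3 regions in steps of 10 kb along Esrrb and Nr5a2, counted from the outermost annotated start, with triangles at annotated starts; the last bar of each gene is narrower because the gene ends there. H3K27me3 reaches 99.8% at the second start of Esrrb, where H3K4me3 covers 2%, and in Nr5a2 the highest bars are the first and second, at 92.0% and 79.0%.

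Nr5a2 encodes LRH-1, an orphan nuclear receptor known to bind the Pou5f1 promoter in mouse cells. Its gene (chr1:136842562-136960448, 117887 bp) had 22 H3K27me3 regions in its window, covering 27700 bp. They were gathered near the starts, with 92.0% and 79.0% of bases covered in the first and second 10 kb and at most 5% in each step between 30 and 110 kb. The last step, of 7887 bp at the 3′ end, reached 36.8%. The first start lay under a 3200 bp region and the second under an 11900 bp region, and all bases within 1000 bp of either start were covered. An 800 bp H3K4me3 region (chr1:136948401-136949200) lay wholly inside the 11900 bp region, 4430 bp downstream of the second start. No annotated start lay within it. Regions of the histone marks shared bases within 30 kb of 3 of the 10 genes, namely Esrrb, Nr5a2 and Sall4, beside 4.67% of all protein-coding genes. That share was not matched for gene length, and Esrrb (160512 bp) and Nr5a2 (117887 bp) are long genes. At Sall4 the shared bases lay at its neighbour Atp9a. The H3K4me3 regions involved were narrow, and with regions wider than their list's median alone the count was 0 of 10, beside 2.22% of all genes.

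Tfcp2l1 encodes a factor that acts downstream of LIF and Stat3 signalling in mouse embryonic stem cells. It was the exception among the 10 genes. A single H3K4me3 region of 1200 bp (chr1:118627401-118628600) covered its annotated start at 118627945 and 60% of the bases within 1000 bp of that start. The 1200 bp width lay close to the list's median of 1100 bp. No H3K27me3 region was listed within 30 kb of the gene (chr1:118627923-118685168), and the nearest lay 422 kb away, a distance reached by 9.36% of all genes. No other region of any list lay in the window.

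Prdm14, a PR-domain factor of naive and germ cells, showed the reverse state. The gene (chr1:13113428-13127163) and its flanks held 17 H3K27me3 regions covering 21500 bp and no H3K4me3. Coverage was 67.5% at the ends, 59.9% inside and 20.3% in the flanks. The widest stretch of abutting regions, 6600 bp (chr1:13123301-13129900), lay over the upper end of the gene. The nearest H3K4me3 region lay 120 kb away, beside a median of 0 kb over all genes.

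Utf1 encodes a chromatin-associated factor expressed in embryonic stem cells. Its short gene (chr7:139943856-139945112, 1257 bp) had H3K27me3 regions of 2200 bp and 1700 bp at its ends, covering 75.4% of the end windows. The annotated start fell into a gap of 800 bp between them (chr7:139943701-139944500), 156 bp from the upstream region. Of the 24 H3K27me3 regions in the window, 21 lay within or up to 1000 bp from Kndc1, the upstream neighbour. Downstream, a 2300 bp H3K4me3 region began 4689 bp beyond the gene, over the start of the long noncoding RNA gene Gm16201, which was named after its values were seen.

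Lin28a encodes the RNA-binding protein that blocks maturation of let-7 microRNAs. H3K27me3 covered 70.6% of the inside of the gene (chr4:134003330-134019196), the highest of the 9 genes long enough to have an inside. The annotated start at 134018816 lay within 11200 bp of abutting regions (chr4:134009501-134020700), a width reached by 0.533% of such stretches. All bases within 1000 bp of this start were covered. The upstream flank was covered to 47.3%, in 16 regions, and the downstream flank to 0%. There a 3900 bp H3K4me3 region covered the start of Dhdds, which encodes a dehydrodolichyl diphosphate synthase subunit, 1530 bp beyond the gene.

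Lin28a was not alone in having uneven flanks. The promoter table gives the strand of 5 genes with H3K27me3 in a flank, and in 5 of 5 the upstream flank held more of it. The same was true of 54.9% of the 7129 protein-coding genes with a listed start and H3K27me3 in a flank. The covered bases upstream and downstream were 13704 and 0 at Lin28a, 19000 and 8300 at Esrrb, 12855 and 1888 at Utf1, 2469 and 0 at Pou5f1, and 1052 and 0 at Nr5a2. Prdm14 and Sall4 have no listed strand and could not be counted, so either may run against the pattern. The lower and upper flanks held 8627 and 3137 covered bases at Prdm14, and 800 and 15399 at Sall4. At Utf1 all 21 upstream regions lay within 1000 bp of Kndc1, and at Pou5f1 no region touched the gene itself. The part of these neighbours in the count was not tested.

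**Figure D3:**
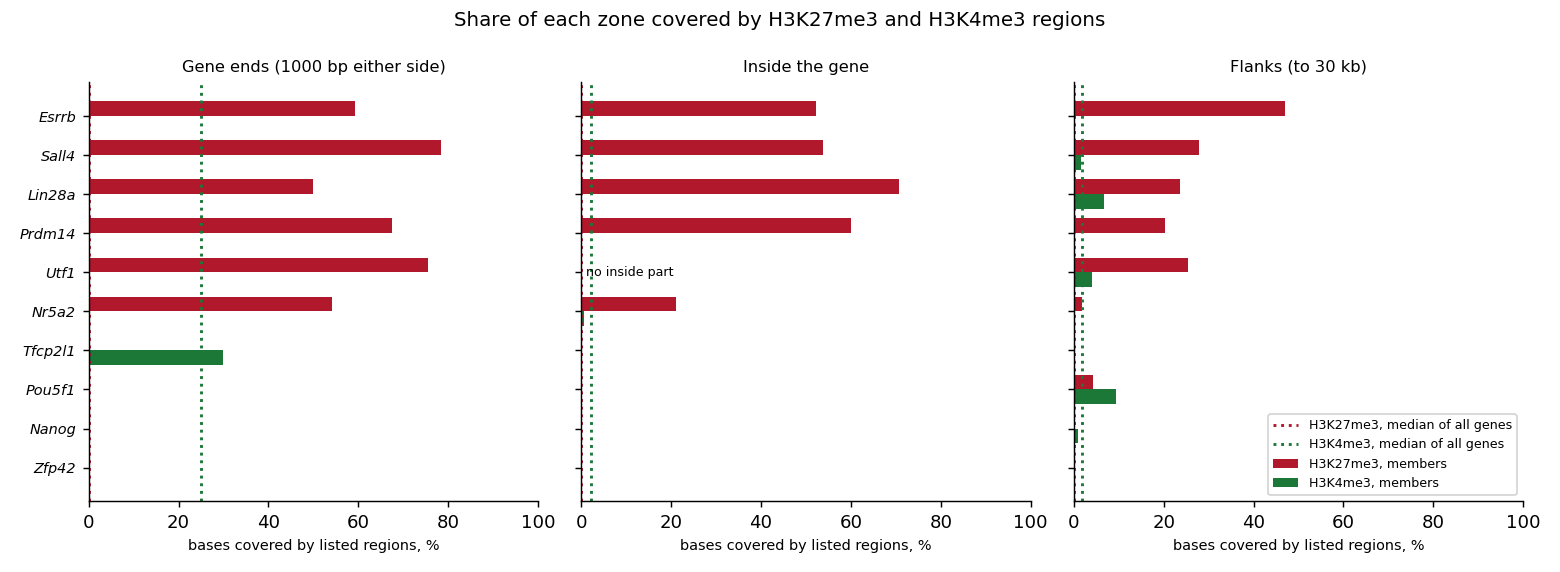
Bars give the percentage of bases covered by H3K27me3 and H3K4me3 regions at the ends, inside and in the flanks of each gene, and dotted lines give the median over all protein-coding genes (0% for H3K27me3 in each zone). H3K27me3 covers 50% to 78.3% of the end windows of 6 genes, and H3K4me3 covers 30% of those of Tfcp2l1.

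Over the 10 genes, H3K27me3 covered a median of 52.0% of the end windows, beside 0% over all protein-coding genes. Inside the gene the median was 21.1% over 9 genes, beside 0%, and in the flanks 12.3%, beside 0%. H3K4me3 ran the other way at the ends, with a median of 0% of bases covered, beside 25% over all genes. Inside the gene, H3K27me3 was listed in 5 of 9 genes, beside 19.4% of all genes, and H3K4me3 in 2 of 9, beside 62.8%. Within 30 kb, H3K27me3 was listed at 7 of 10 genes, beside 42.9%, and H3K4me3 at 8 of 10, beside 77%. The last share is close to that of all genes. In the flanks alone, from 1000 bp to 30 kb beyond the ends, H3K27me3 was listed at 7 of 10 genes, beside 40.4% of all genes, and H3K4me3 at 5 of 10, beside 63.3%.

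Annotated starts gave a like picture. Of the 8 genes with a listed start, 4 (Lin28a, Esrrb, Nr5a2 and Utf1) had H3K27me3 within 1000 bp of one, beside 10.9% of the 17492 protein-coding genes with a listed start. Esrrb and Tfcp2l1, 2 of 8, had H3K4me3 there, beside 56.8%, and 0 of 8 had succinyllysine, beside 5.17%. Of the 12 starts, 5 lay under an H3K27me3 region, beside 4.35% of the 21263 listed starts of protein-coding genes. These were both starts of Esrrb, both of Nr5a2 and that of Lin28a, so starts of the same gene were counted separately. Of the 10 H3K4me3 regions in these windows, 2 covered a start of the genes described here (Esrrb and Tfcp2l1), 5 covered a start of a neighbour alone and 3 covered no annotated start. The 227 H3K27me3 regions had a median width of 700 bp, beside 600 bp in the whole list, and 7 of them (3.08%) were 5000 bp or wider, beside 1.49% of the list. Esrrb alone held 116 of the 227, and Nanog, Zfp42 and Tfcp2l1 held none, so these pooled widths do not describe each gene.

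No succinyllysine region was listed within 30 kb of any of the 10 genes, 0 of 10 beside 23.6% of all protein-coding genes. At the ends the count was 0 of 10 beside 5.42%, inside 0 of 9 beside 7.75%, and in the flanks 0 of 10 beside 18.1%. Within 100 kb it was 2 of 10, Pou5f1 and Nanog, beside 42.9% of all genes. The nearest succinyllysine region lay 39.0 kb from Pou5f1, 44.5 kb from Nanog and 146 kb from Nr5a2. It lay 172 kb from Utf1, 188 kb from Lin28a, 229 kb from Sall4, 237 kb from Zfp42 and 278 kb from Esrrb. The farthest were 439 kb at Tfcp2l1 and 1181 kb at Prdm14. The median over all genes was 138 kb, so 8 of the 10 genes lay beyond it and Pou5f1 and Nanog lay nearer. Genes in each of the 3 histone mark states, Tfcp2l1 with H3K4me3 included, lacked a listed succinyllysine region within 30 kb, as did most genes.

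**Figure D4:**
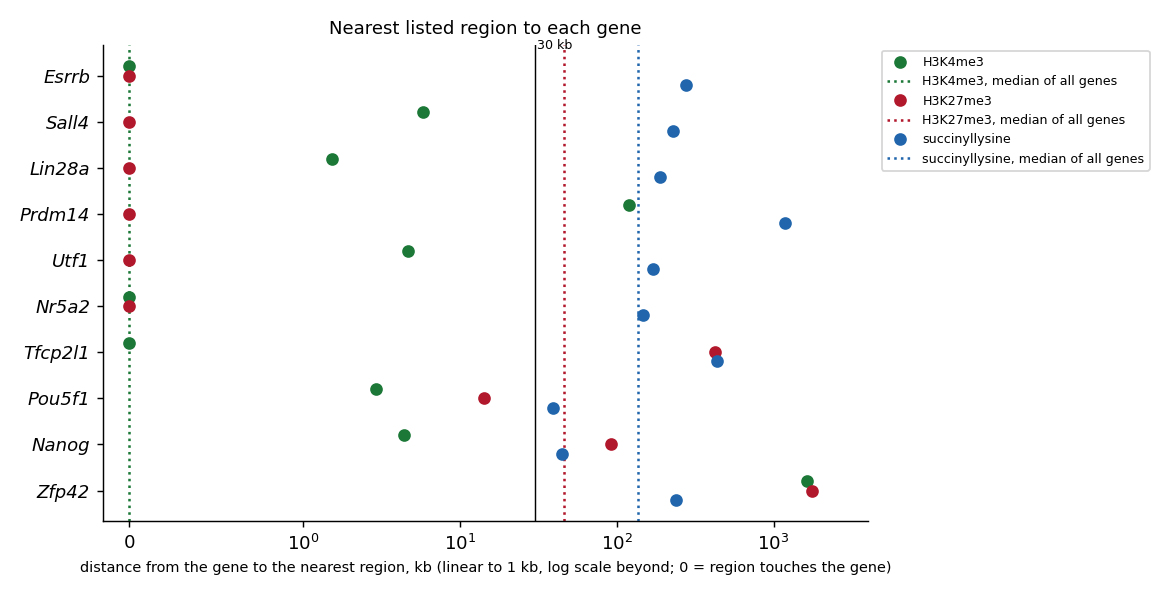
Points give the distance in kb from each gene to the nearest region of each list, on an axis that is linear to 1 kb and logarithmic beyond, where 0 means that a region touches the gene; dotted lines give the median over all protein-coding genes and the black line marks 30 kb. All succinyllysine points lie to the right of 30 kb, from 39.0 kb at Pou5f1 to 1181 kb at Prdm14, and from Zfp42 the nearest H3K4me3 and H3K27me3 regions lie 1626 and 1766 kb away.

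Promoter base composition did not sort the genes cleanly by mark. CpG dinucleotides in the 300 bases around the start numbered 21 at Tfcp2l1 and 17 at Utf1, both above the median of 13 over the 21263 promoters. The other 10 annotated starts had between 2 (first start of Nr5a2) and 11 (Zfp42 and the first start of Pou5f1). Thus the H3K27me3-marked genes with a listed start ranged from 2 to 17 CpG and the unmarked ones from 4 to 11. Prdm14 and Sall4 have no listed start. The value of 17 belongs to Utf1, whose start lay in a gap, and starts under an H3K27me3 region had 2 to 10. Among all promoters of the table with 15 or more CpG, 90.1% had H3K4me3 and 7.87% had H3K27me3 within 1000 bp of the start. With 5 to 14 CpG these shares were 46.3% and 12.8%, and with at most 4 they were 7.67% and 12.3%. The CpG classes were chosen after the data had been seen.

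The contrast is shown by the H3K4me3-marked start of Tfcp2l1, by that of Utf1 in its H3K27me3 gap, and by the second start of Esrrb, where both marks were listed. Each line gives the 250 bases before the start from RefSeq (GRCm38.p6), 5′ to 3′, with CpG in capitals.
Tfcp2l1, chr1:118627695-118627944, plus strand: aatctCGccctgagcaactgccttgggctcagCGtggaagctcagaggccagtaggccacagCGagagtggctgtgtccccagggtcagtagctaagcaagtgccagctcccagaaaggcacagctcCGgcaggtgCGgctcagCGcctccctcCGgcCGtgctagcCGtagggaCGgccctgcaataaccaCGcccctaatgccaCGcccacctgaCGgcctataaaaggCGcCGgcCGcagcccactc
Utf1, chr7:139943606-139943855, plus strand: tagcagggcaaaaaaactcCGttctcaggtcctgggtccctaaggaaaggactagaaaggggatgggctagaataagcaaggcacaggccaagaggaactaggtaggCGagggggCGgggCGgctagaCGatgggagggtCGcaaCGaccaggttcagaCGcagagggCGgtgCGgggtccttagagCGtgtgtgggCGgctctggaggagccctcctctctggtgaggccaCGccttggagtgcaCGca
Esrrb second start, chr12:86421394-86421643, plus strand: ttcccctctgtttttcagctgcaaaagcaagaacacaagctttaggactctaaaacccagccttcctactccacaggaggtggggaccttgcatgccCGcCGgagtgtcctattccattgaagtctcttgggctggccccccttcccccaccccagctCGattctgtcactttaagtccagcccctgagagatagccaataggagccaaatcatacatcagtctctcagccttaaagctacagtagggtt

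These 250 bases held 16 CpG at Tfcp2l1, 14 at Utf1 and 3 at Esrrb. All 250 bases of Tfcp2l1 lay under H3K4me3. At Esrrb the 143 bases next to the start lay under H3K4me3 and all 250 under H3K27me3. At Utf1 the 95 bases farthest from the start lay under H3K27me3.

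Genes whose pattern was most like that of the 3 members with the most covered bases were sought by the sum of absolute differences over 9 values, the percentage of bases covered by each of 3 marks in the end windows, inside and in the flanks. The closest to Esrrb were Kcna6 (8.29 percentage points in sum) and Gzmc (13.8). The closest to Lin28a were Skor2 (8.90) and Atp1a4 (9.41), and the closest to Sall4 were H2-Q6 (11.4) and Myh4 (16.3). The likeness is a description over 3 lists and not over samples.

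A further 24 genes of the pluripotency network were examined for comparison. H3K4me3 lay at an end of 10 of 24, beside 55.6% of all genes, H3K27me3 at 6 of 24, beside 13.6%, and succinyllysine at 2 of 24, beside 5.42%. At the ends, H3K4me3 without H3K27me3 was found at Klf2, Klf4, Klf5, Tbx3, Tet1, Jarid2 and Zfp296, of which Klf2 and Klf4 also had succinyllysine, with regions of up to 1400 and 1000 bp. Tbx3, a T-box factor gene, had no H3K27me3 at its ends or inside, but 40.3% of its 30 kb window was covered by it. The Klf genes encode Kruppel-like factors that are active in many somatic cells, Tet1 a 5-methylcytosine dioxygenase and Jarid2 a cofactor of Polycomb repressive complex 2. H3K27me3 without H3K4me3 was found at the ends of Fgf4, a growth factor gene whose 30 kb window was covered to 61.3%, and at those of Tfap2c (29.5%) and Tcl1 (7.73%). Sox2, Lin28b and Trim71 had both marks, 3 of 24 beside 3.13% of all genes. Neither was found at the ends of the other 11 of 24, beside 34%. Over all protein-coding genes, H3K4me3 without H3K27me3 lay at the ends of 52.4%, and H3K27me3 without H3K4me3 at those of 10.4%.

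The label of the cells was set beside defining genes. At a gene end, H3K4me3 was listed for 55.6% of all protein-coding genes, H3K27me3 for 13.6% and succinyllysine for 5.42%. Of 14 fibroblast genes, 13 had H3K4me3 at an end, 0 had H3K27me3 and 6 had succinyllysine, with H3K4me3 regions of up to 9200 bp at Prrx1, 7800 bp at Col1a1 and 7200 bp each at Twist1 and Twist2. The exception was Thy1, which had no region of any list at its ends. Of 8 epithelial genes, 4 had H3K4me3, 3 had H3K27me3 and 1, Krt8, had succinyllysine. H3K4me3 and H3K27me3 lay at 1 and 1 of 6 haematopoietic genes, 3 and 3 of 6 neuronal genes, and 1 and 1 of 6 germ cell genes, with no succinyllysine at the ends in these 3 lists. The H3K4me3 counts of the epithelial and neuronal genes were close to the share of all genes. Thy1 and Krt8 were named after their values were seen.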

How the data were processed

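For each antibody the authors deposited a single region list, in which a row holds a chromosome, a start and an end. Bowtie2 2.2.3 and mm10 are named in the submitters' processing notes. The sources used here do not say which program called the regions, at what threshold, how samples were pooled or whether input entered the calls. All positions lay on a grid of 100 bp and were read as 1-based and inclusive. Some regions start at the base after another ends (13.0% of the H3K27me3 list, 52 of the 227 here); these were joined where stretches of abutting regions are described, and were otherwise kept apart.

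Gene ends came from the RefSeq gene table, and strands, starts and sequences from the RefSeq promoter table (250 bases before to 50 after a start), which listed 12 starts for 8 of the 10 genes. A gene counted as marked when at least 1 bp was shared with a zone: the ends (1000 bp either side), the inside (beyond 1000 bp from both ends) or the flanks (1001 to 30000 bp outside). Distances run from edge to edge. Region counts per window, coverage and distances from a single base were tested on simulated data before use and were recovered. Distances from a whole gene were not tested in this way. Python 3.11.15, numpy 2.4.6 and pandas 2.3.3 were used. The genes and comparison lists were chosen with earlier results of these data known. Named genes were the 10 genes, neighbours within 1000 bp of their regions, marked genes of the further pluripotency list, the 4 fibroblast genes with the widest H3K4me3, and the 2 genes most like each of 3 members. The shortened octamer, the CpG classes and the relatives of the genes were chosen after the data had been seen. Input libraries were not analysed here.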

Additional observations from a re-analysis of the deposited data

How the results depend on the processing

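Counts of marked genes were recomputed under 8 settings, 53 values in all, of which 47 stayed within 1.5 times the reported count. The 6 H3K27me3-marked genes at the ends were the same with windows of 500 and 2500 bp, with 50% of a region required, with regions wider than their list's median alone and with regions within 1000 bp merged; with annotated starts alone 4 of them remained, since Prdm14 and Sall4 have no listed start. Regions wider than the median left H3K4me3 inside 0 genes, within 30 kb of 4 genes and sharing bases with H3K27me3 at 0 genes. The H3K4me3 regions at Esrrb, Nr5a2, Sall4 and Nanog measured at most 800 bp and were dropped. For all protein-coding genes this rule was applied to shared bases alone, which were found at 2.22%. Whether the lower H3K4me3 counts inside the gene and within 30 kb are particular to these genes was therefore not tested. H3K4me3 at the ends counted 2 genes with annotated starts alone (Esrrb added) and 2 with windows of 2500 bp (Lin28a added, through the region at Dhdds). Succinyllysine counted 2 genes, Pou5f1 and Nanog, within 100 kb, and 0 in its other settings. Those counts of 0 were fixed in advance, because no succinyllysine region lay nearer than 39.0 kb to any of the 10 genes. They are among the 47 values and show nothing about stability. No paired analysis was possible because the lists hold no values per sample, and for the same reason no replicate could be left out. The lists give no score, so a stricter threshold could not be applied, and a gene without a region may lie below an unknown cutoff.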

Other observations

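Relatives of 6 of the 10 genes were looked at after the results above had been seen. Of these 12 relatives, 9 had H3K4me3 at an end, beside 55.6% of all protein-coding genes, and 7 had H3K27me3, beside 13.6%. Both marks lay at the ends of 4, beside 3.13%, and succinyllysine at 0, beside 5.42%. The widths that follow are those of the widest single region at an end. Tfcp2 and Ubp1 had H3K4me3 alone, like Tfcp2l1, with 3500 and 4300 bp. Nr5a1, the steroidogenic relative of Nr5a2, had H3K27me3 alone at its ends, like Nr5a2, and the mark covered 54.5% of its inside and 13.4% of its 30 kb window. Sall2 and Sall3 also had H3K27me3 alone at their ends, like Sall4, with 9600 and 11800 bp, while Sall1 had both marks there. Inside the gene, H3K4me3 covered 19.8% of Sall1, 19.4% of Sall2 and 2.22% of Sall3. The other relatives were not in the state of their member. Esrra and Esrrg had H3K4me3 at an end, covering 30.3% and 0.630% of their windows, and no H3K27me3 within 30 kb, where Esrrb had H3K27me3. Lin28b had both marks at its ends, with H3K27me3 over 20.9% and H3K4me3 over 0.412% of its window, where Lin28a had H3K27me3 alone at its ends. Pou5f1 had neither mark at its ends, whereas Pou2f1 (Oct1) had H3K4me3 of 3000 bp, and the neural factors Pou3f1 and Pou3f2 had both marks, with H3K27me3 of 4100 and 9700 bp.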
